A study of Mus musculus with 6 samples.

Results

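The splicing regulators described here are the SR proteins, the hnRNPs and 8 further families of RNA-binding proteins that choose which exons enter an mRNA. They are the protein-coding genes whose symbol is Srsf, Rbfox, Celf, Nova, Ptbp, Elavl, Mbnl or Khdrbs followed by a digit, begins with Hnrnp, or is Qk. The rule found 56 of the 30821 genes in the authors' comparison table, 18058 of which were protein-coding. It took 11 SR proteins, 20 hnRNPs, 3 Rbfox, 6 Celf, 2 Nova, 3 Ptbp, 4 Elavl, 3 Mbnl and 3 Khdrbs genes and Qk. Of the 56, 55 passed the filter on low counts. Mbnl3, a muscleblind gene, had 2 to 8 counts per library and was not tested.

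Alternative splicing joins the exons of a gene in different combinations, and neurons use it widely for ion channels, receptors and synaptic adhesion proteins. SR proteins carry arginine-serine repeats and mostly promote the use of an exon when bound inside it, while hnRNPs are abundant nuclear proteins that often repress exons. Rbfox, Nova, Celf, neuronal Elavl, Khdrbs and Ptbp proteins add cell type specific control on top of these, and neurons, glia and precursors hold different sets of them. TAF15 is itself an RNA-binding protein.

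RNA was sequenced from whole hippocampi of 6 male C57BL/6J mice, 1 mouse per library. In the TAF15 OE group, 3 mice had received an adeno-associated virus (AAV) for TAF15 in CA1 on both sides, named AAV-CaMKIIα-TAF15 after a promoter active in excitatory neurons. The 3 Control mice had received AAV-control at the same site, so both groups had the surgery and an AAV. The promoter, cargo and dose of AAV-control are not given in the sample titles. All were injected at 8 weeks of age and carry 31 days in their labels, and the dissected tissue held every hippocampal cell type, not the transduced neurons alone.

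Libraries held 14965464 to 16067000 counts. Taf15 stood at 249, 241 and 272 CPM in TAF15 OE 1, 2 and 3, against 61.7, 63.5 and 53.0 CPM in Control 1, 2 and 3 (read counts relative to the TMM-scaled library total), and the groups lay far apart (log2 fold change 2.1, SE 0.086, adjusted p = 4.97e-07 by edgeR's quasi-likelihood test with Benjamini-Hochberg adjustment, the test behind all adjusted p-values below unless another is named). Excitatory neuron markers of the hippocampus were present in every library, summing to 7149 to 8887 CPM in TAF15 OE and 10599 to 12736 CPM in Control. Control 1 and TAF15 OE 1 stood apart from the other 4 libraries on the second principal component (21.7% of the variance). Summed choroid plexus markers were 143 CPM in Control 1 and 1531 CPM in TAF15 OE 1, against 4296 to 5002 CPM in the other 4. Results are therefore also given without the libraries numbered 1.

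Of the 55 tested genes, 10 changed at an adjusted p below 0.05: Qk, Hnrnpf, Ptbp1 and Ptbp3 rose in TAF15 OE, and Rbfox1, Rbfox3, Celf2, Celf3, Celf5 and Khdrbs3 fell. When libraries were scaled on pan-neuronal markers instead, as given below, the estimates of all genes moved up by nearly the same amount. Only Rbfox3 of these 6 was then still called lower, and Celf2 and Celf3 lay above 0. Among all 16758 tested genes, 15.3% were called, 9.32% higher and 5.95% lower. The regulators' shares were 7.27% higher (4 genes) and 10.9% lower (6 genes). The calls were not spread evenly over the families, as the plot of fold changes by family shows: SR proteins and hnRNPs together gave 1 call in 31 genes and the other 8 families 9 calls in 24. Library by library, every TAF15 OE library lay above every Control library for 6 of the 55 genes and below for 14, against 19.1% and 15.5% of all tested genes. The largest estimates were 1.43-fold higher for Qk and 1.42-fold lower for Rbfox1. Without both libraries numbered 1, 2 were higher and 8 lower, against 7.05% and 5.99% of the 16968 genes tested there. Levels come from whole tissue, in which fewer cells of a type and less RNA per cell cannot be told apart.

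**Figure D1:**
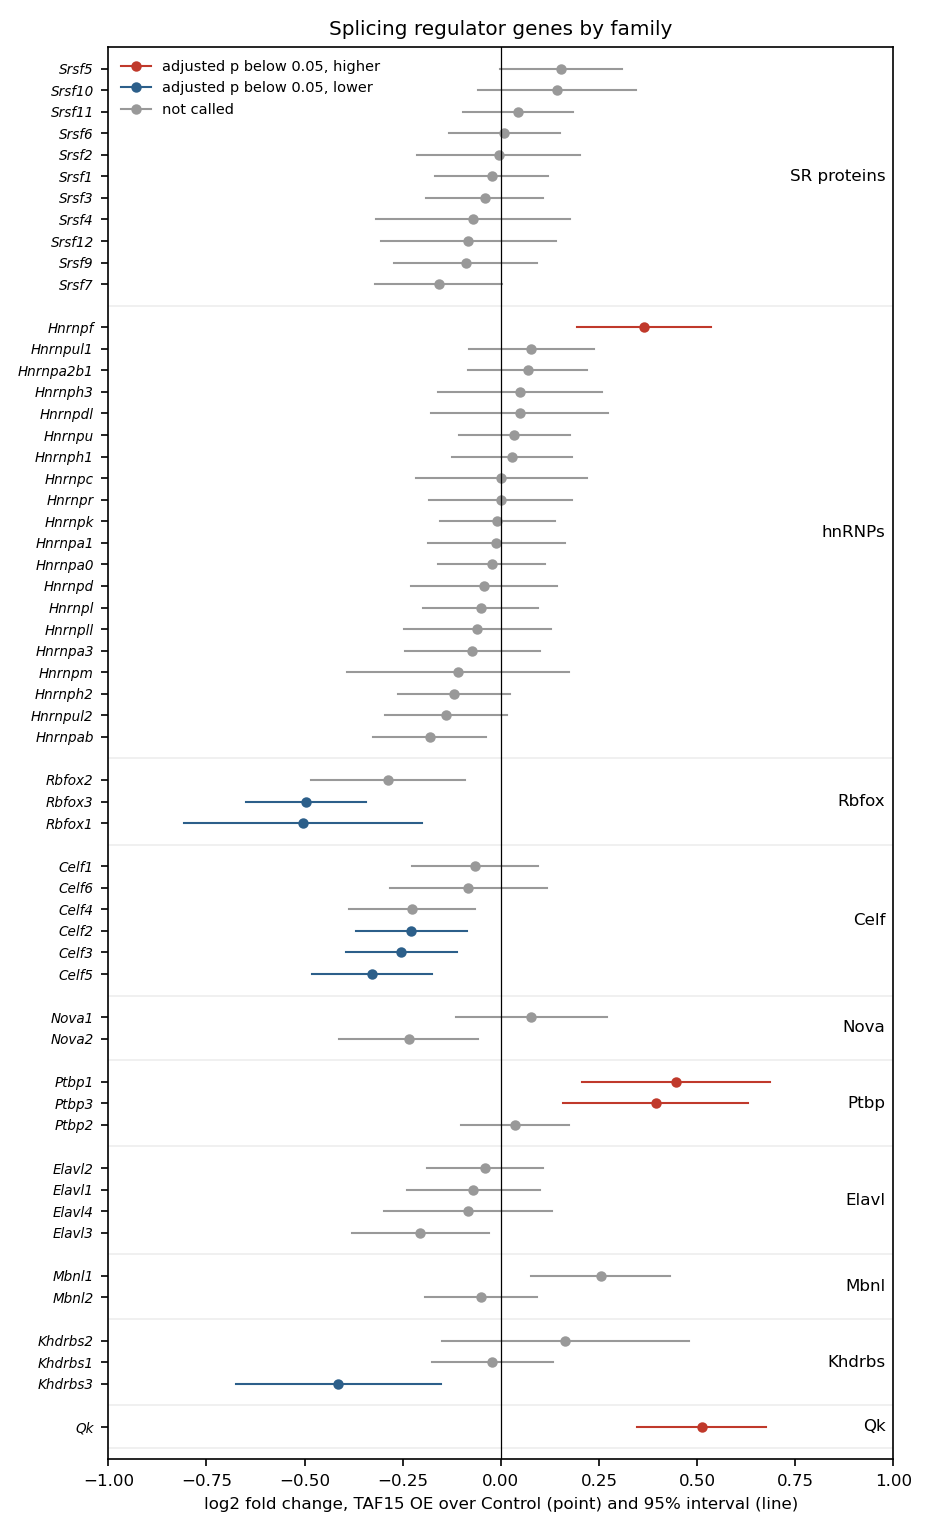
Log2 fold change of TAF15 OE over Control for the 55 tested splicing regulators (points) with 95% intervals (lines), grouped by family and sorted within it; red and blue mark an adjusted p below 0.05, higher or lower. SR proteins and hnRNPs other than Hnrnpf sit between -0.18 and 0.15, while the Rbfox and Celf genes lie below 0 (scaling on pan-neuronal markers puts all Celf genes but Celf5 above it) and the Ptbp genes and Qk above 0.

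None of the 11 SR protein genes passed the test, and their median log2 fold change was -0.02, against 0.03 over all tested genes. The estimates ran from -0.16 for Srsf7, which acts in splicing and mRNA export, to 0.15 for Srsf5, and the widest bounds of the 95% intervals were -0.32 and 0.35. With TMM scaling, a change beyond 1.25-fold down or 1.27-fold up was outside every interval. With scaling on pan-neuronal markers, the median of all tested genes was 0.29 and 35.8% of them were called higher. The SR protein genes then had a median of 0.24, and 6 of 11 were called higher. Srsf5, the most abundant of them per length, stood at 317, 323 and 367 CPM in TAF15 OE 1, 2 and 3, against 302, 305 and 299 CPM in Control 1, 2 and 3. Its TAF15 OE libraries lay above its Control libraries, TAF15 OE 3 highest, but the difference did not pass (log2 fold change 0.15, SE 0.071, adjusted p = 0.179). Srsf7 stood at 92.7, 84.6 and 89.3 CPM in the TAF15 OE libraries, against 107, 94.5 and 96.3 CPM in the Control libraries, with every TAF15 OE library below, and did not pass either (adjusted p = 0.178). The other 9, Srsf1, Srsf2, Srsf3, Srsf4, Srsf6, Srsf9, Srsf10, Srsf11 and Srsf12, had overlapping groups.

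The hnRNPs gave 1 call in 20 genes, Hnrnpf, whose product binds G-rich RNA near splice sites and poly(A) signals. Hnrnpf (ENSMUSG00000042079, chromosome 6, 117900324 to 117925622, plus strand, GRCm38) stood at 54.2, 53.0 and 51.4 CPM in TAF15 OE 1, 2 and 3, against 42.0, 38.7 and 42.4 CPM in Control 1, 2 and 3. The groups did not overlap and the libraries within each lay close together, a 1.29-fold rise (log2 fold change 0.37, SE 0.078, adjusted p = 0.0106). Of the exonic sequence of Hnrnpf, 55.9% of 75-base words also occur in transcripts of other genes, and 26.5% of its exonic bases overlap genes on the other strand, so its counts may include reads of other loci. The median over the 20 was -0.01. With scaling on pan-neuronal markers it was 0.26, where that of all tested genes was 0.29. That scaling called 12 of the 20 higher, against 35.8% of all tested genes. At the low end was Hnrnpab, an A/B-type hnRNP, with 84.4, 82.6 and 80.4 CPM in the TAF15 OE libraries, against 93.0, 97.2 and 90.5 CPM in the Control libraries. Every TAF15 OE library lay below every Control library, yet the difference did not pass (log2 fold change -0.18, SE 0.066, adjusted p = 0.0905). Of the exonic bases of Hnrnpab, 29.1% overlap Phykpl on the opposite strand. Hnrnpa1, Hnrnpa2b1, Hnrnpc and Hnrnpk, core nuclear hnRNPs, had overlapping groups. So had the other 14 apart from Hnrnph2, whose TAF15 OE libraries all lay below and which was not called (adjusted p = 0.253). Hnrnpm, a splicing factor bound to GU-rich RNA, varied most within TAF15 OE relative to its mean among the tested regulators, at 169, 114 and 136 CPM in the TAF15 OE libraries, against 151, 154 and 147 CPM in the Control libraries. It was not called (log2 fold change -0.11, SE 0.125, adjusted p = 0.620), but was called lower without TAF15 OE 1 (log2 fold change -0.29, adjusted p = 0.0358) and without both libraries numbered 1 (-0.30, adjusted p = 0.0470), and without TAF15 OE 2 its estimate was 0.0042. Of the exonic bases of Hnrnpm, 14.7% overlap March2 on the same strand.

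Of the 3 Rbfox genes, 2 fell. Their proteins bind introns near alternative exons and set the splicing of channel and synaptic transcripts in neurons, and Rbfox3 protein is the NeuN antigen of neuronal nuclei. Rbfox3 (ENSMUSG00000025576, chromosome 11, 118489762 to 118911597, minus strand) stood at 260.2, 229 and 239.7 CPM in TAF15 OE 1, 2 and 3, against 355, 329.5 and 344 CPM in Control 1, 2 and 3. The highest TAF15 OE library was well below the lowest Control library, and Rbfox3 was 1.41-fold lower (log2 fold change -0.50, SE 0.070, adjusted p = 0.00149). Rbfox1 (ENSMUSG00000008658, chromosome 16, 6809222 to 7412479, plus strand) stood at 399.6, 313 and 287 CPM in TAF15 OE 1, 2 and 3, against 536, 435 and 448 CPM in Control 1, 2 and 3. Library 1 was the highest of each group, and the groups did not overlap (1.42-fold lower, log2 fold change -0.50, SE 0.132, adjusted p = 0.0384). Rbfox2, which is expressed beyond neurons, showed the same order of libraries with a smaller difference, at 297, 249 and 248 CPM in the TAF15 OE libraries, against 354, 298 and 318 CPM in the Control libraries. It just missed the threshold (log2 fold change -0.29, SE 0.089, adjusted p = 0.0503) and passed without both libraries numbered 1 (log2 fold change -0.34, adjusted p = 0.0122), while scaling on pan-neuronal markers left -0.02 (adjusted p = 0.815). On that scale Rbfox1 was not called either (-0.24, adjusted p = 0.0938). As shares of the summed Rbfox FPKM, Rbfox2 made up 22.8% ± 0.559 in TAF15 OE and 20.3% ± 0.255 in Control (SD, n = 3 mice in each group), and every TAF15 OE library was above every Control library. Rbfox1 held 50.6% ± 2.53 in TAF15 OE and 52.5% ± 1.53 in Control and Rbfox3 26.6% ± 1.97 in TAF15 OE and 27.3% ± 1.43 in Control, with overlapping groups.

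Of the 6 Celf genes, whose proteins bind GU-rich RNA in splicing and mRNA decay, 3 fell, although Celf2 and Celf3 turned to 0.04 and 0.01 on the log2 scale with scaling on pan-neuronal markers. Celf5 (ENSMUSG00000034818, chromosome 10, 81459227 to 81482709, minus strand), a brain-enriched member, stood at 223, 202 and 213 CPM in TAF15 OE 1, 2 and 3, against 277, 251 and 273 CPM in Control 1, 2 and 3. The groups did not overlap, TAF15 OE 2 being the lowest library (1.26-fold lower, log2 fold change -0.33, SE 0.069, adjusted p = 0.0103). Celf3 (ENSMUSG00000028137, chromosome 3, 94478295 to 94492198, plus strand), also brain-enriched, stood at 169, 174 and 184 CPM in TAF15 OE 1, 2 and 3, against 206, 212 and 210.0 CPM in Control 1, 2 and 3. Its Control libraries agreed closely and all TAF15 OE libraries lay under them (1.19-fold lower, log2 fold change -0.25, SE 0.065, adjusted p = 0.0228). Celf2 (ENSMUSG00000002107, chromosome 2, 6539694 to 7509563, minus strand), found in brain, heart and lymphocytes, stood at 397, 361 and 379 CPM in TAF15 OE 1, 2 and 3, against 455, 439 and 439 CPM in Control 1, 2 and 3. Again no libraries of the groups overlapped, and the difference was the smallest of the 10 called (1.17-fold lower, log2 fold change -0.23, SE 0.065, adjusted p = 0.0356). Celf4, a neuronal regulator of mRNA stability and translation, had an estimate of the same size and did not pass (log2 fold change -0.23, SE 0.073, adjusted p = 0.0586). Celf1 and Celf6 had log2 fold changes of -0.07 and -0.08 (adjusted p = 0.607 and 0.599). That scaling turned the sign of Celf1, Celf4 and Celf6 too.

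The other neuronal families gave 1 call. Khdrbs3, a STAR family protein known for controlling neurexin splicing, was 1.33-fold lower (log2 fold change -0.41, SE 0.116, adjusted p = 0.0412). Khdrbs3 (ENSMUSG00000022332, chromosome 15, 68928420 to 69093512, plus strand) stood at 155, 121 and 119.7 CPM in TAF15 OE 1, 2 and 3, against 198, 166 and 162 CPM in Control 1, 2 and 3. As with all 3 Rbfox genes, library 1 was the highest in both groups, and the groups did not overlap. Khdrbs1, a widely expressed relative also called Sam68, and Khdrbs2, a neuronal one present at 0.871 FPKM (the authors' fragments per gene length and library total, mean of 6), had log2 fold changes of -0.02 and 0.16 (adjusted p = 0.877 and 0.498). Nova2, a neuronal KH-domain regulator first known as an autoimmune antigen, stood at 88.8, 81.1 and 85.1 CPM in the TAF15 OE libraries, against 103, 89.6 and 108 CPM in the Control libraries. All TAF15 OE libraries lay below, Control 2 being close to them (log2 fold change -0.23, SE 0.081, adjusted p = 0.0750). Of the exonic bases of Nova2, 31.7% overlap a noncoding gene on the opposite strand. For its paralogue Nova1 the groups overlapped (log2 fold change 0.08, adjusted p = 0.610). Elavl3, a neuronal Hu protein that binds AU-rich RNA, stood at 232, 233 and 234 CPM in the TAF15 OE libraries, against 297, 239.8 and 271 CPM in the Control libraries. The TAF15 OE libraries hardly varied, while Control 1 was the highest and Control 2 near the TAF15 OE level (log2 fold change -0.20, SE 0.080, adjusted p = 0.110). Elavl2 and Elavl4, the other neuronal Hu genes, and the ubiquitous Elavl1 had log2 fold changes of -0.04, -0.08 and -0.07, with overlapping groups and none called.

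The regulators that rose, apart from Hnrnpf, were 2 polypyrimidine tract-binding proteins and Qk, which are known from non-neuronal cells. Qk (ENSMUSG00000062078, chromosome 17, 10206471 to 10319361, minus strand), a STAR family protein required for myelin formation and abundant in oligodendrocytes and astrocytes, stood at 428, 403 and 395 CPM in TAF15 OE 1, 2 and 3, against 299.8, 259 and 301 CPM in Control 1, 2 and 3. Its lowest TAF15 OE library was far above its highest Control library (1.43-fold higher, log2 fold change 0.51, SE 0.075, adjusted p = 0.00183). Ptbp1 (ENSMUSG00000006498, chromosome 10, 79854427 to 79864771, plus strand) represses neuronal exons in non-neuronal cells and gives way to Ptbp2 as precursors become neurons. It stood at 34.3, 31.2 and 38.3 CPM in TAF15 OE 1, 2 and 3, against 22.6, 27.6 and 26.1 CPM in Control 1, 2 and 3, with no overlap (1.36-fold higher, log2 fold change 0.45, SE 0.109, adjusted p = 0.0197). Ptbp3 (ENSMUSG00000028382, chromosome 4, 59471868 to 59549364, minus strand), best known from blood cells, stood at 52.2, 43.7 and 44.8 CPM in TAF15 OE 1, 2 and 3, against 38.3, 30.9 and 37.9 CPM in Control 1, 2 and 3. TAF15 OE 1 was the highest and Control 2 the lowest library (1.31-fold higher, log2 fold change 0.39, SE 0.107, adjusted p = 0.0301). Ptbp2, the neuronal paralogue, stood at 108, 112 and 108 CPM in the TAF15 OE libraries, against 107, 108 and 105 CPM in the Control libraries, with overlapping groups (log2 fold change 0.04, 95% interval -0.10 to 0.17, adjusted p = 0.764). Without both libraries numbered 1, neither Ptbp1 nor Ptbp3 passed (adjusted p = 0.0677 and 0.0602). Of the exonic bases of Ptbp1, 20.7% overlap other genes on the opposite strand, and whether strand was used in counting is not given in the sources used here. Mbnl1, a muscleblind protein that often acts opposite to Celf proteins, stood at 118, 104 and 109 CPM in the TAF15 OE libraries, against 98.2, 83.8 and 95.5 CPM in the Control libraries, all TAF15 OE libraries being above, and missed the threshold (log2 fold change 0.25, SE 0.081, adjusted p = 0.0544). Mbnl2, the more abundant muscleblind gene, stood at 195, 186 and 202 CPM in the TAF15 OE libraries, against 208, 197 and 199.9 CPM in the Control libraries, with overlapping groups (log2 fold change -0.05, adjusted p = 0.668).

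**Figure D2:**
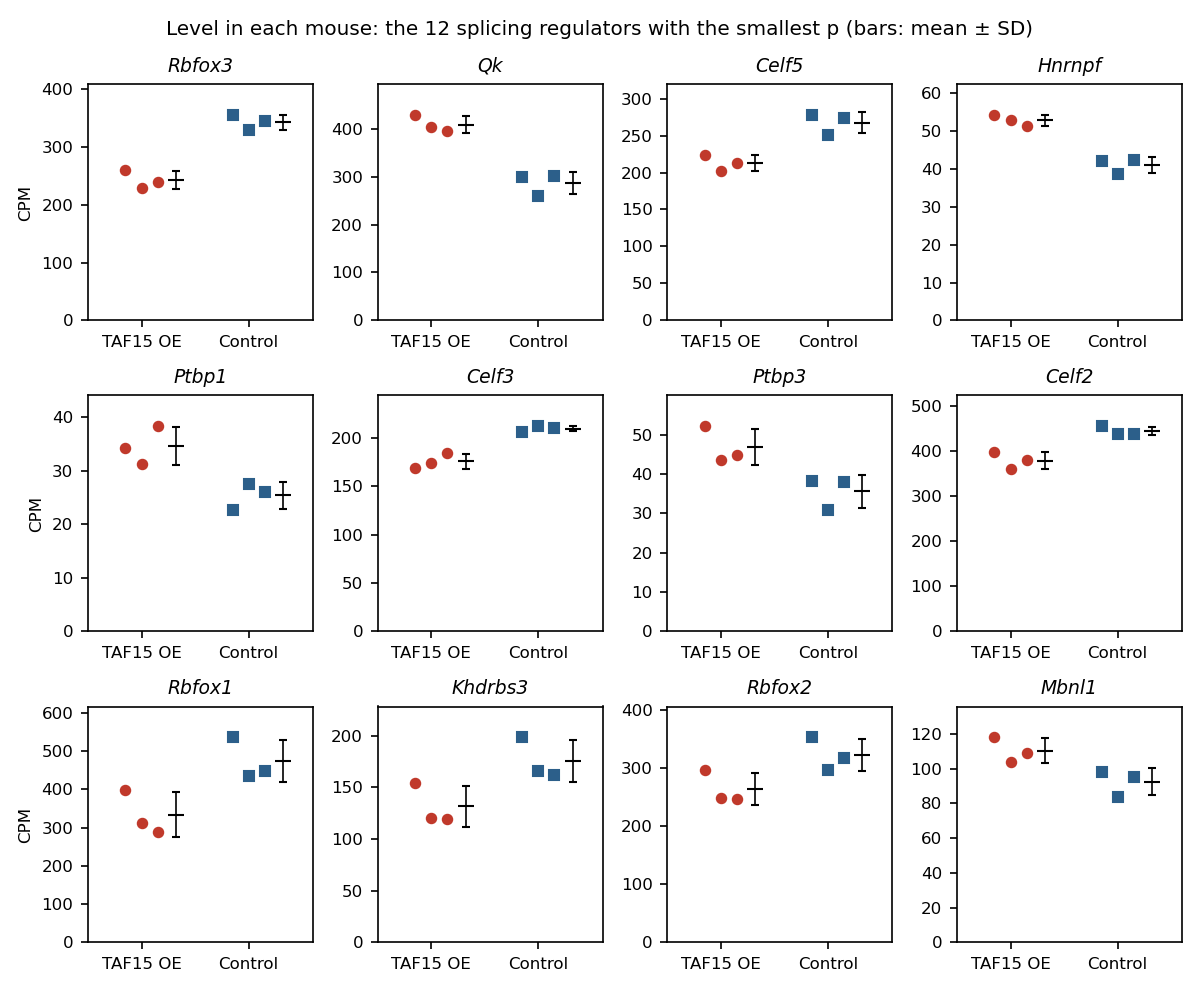
CPM in each mouse for the 12 splicing regulators with the smallest p, TAF15 OE (red circles) left of Control (blue squares), with the mean ± SD of the 3 mice beside them. In each of the 12 panels the groups do not overlap, but the genes were picked for small p in these same libraries. Among all tested genes, every TAF15 OE library lay above every Control library for 19.1% and below for 15.5%. In 8 panels library 1 is the highest in both groups, the exceptions being Qk, Hnrnpf, Ptbp1 and Celf3.

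Shares within a family were also compared, as a description. By the authors' FPKM, Ptbp2 held 46.8% ± 2.46 in TAF15 OE and 53.4% ± 1.26 in Control of the summed Ptbp level, and all TAF15 OE libraries lay below all Control libraries. Ptbp1 held 28.6% ± 2.42 in TAF15 OE and 24.7% ± 2.39 in Control. Those groups overlapped, and the exact permutation test over the 6 libraries gave a two-sided p = 0.2, where 0.1 is the smallest that 3 against 3 mice allow. Nova1 made up 30.6% ± 2.55 in TAF15 OE and 26.2% ± 1.39 in Control of the summed Nova level, above Control in every TAF15 OE library. Neither Nova gene was called (adjusted p = 0.610 for Nova1 and 0.0750 for Nova2 by edgeR). Of the exonic bases of Nova2, 31.7% overlap another gene. The shares of Celf1, Celf6 and Elavl2 in their families also lay above Control in every TAF15 OE library, and that of Celf5 below.

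Per length, the families differ widely in level, as the plot of FPKM by family shows. Hnrnpa1 was the most abundant gene at 104 FPKM (mean of 6), followed by Rbfox1 at 96.7, Hnrnpc at 81.7, Khdrbs3 at 81.1 and Srsf5 at 80.1 FPKM. Rbfox1 averaged 81.5 ± 13.4 FPKM in TAF15 OE and 112 ± 10.9 FPKM in Control (SD, n = 3), Rbfox3 42.4 ± 2.39 FPKM in TAF15 OE and 58.0 ± 1.21 FPKM in Control, and Khdrbs3 70.8 ± 9.85 FPKM in TAF15 OE and 91.4 ± 8.80 FPKM in Control. The genes that rose were at lower levels except for Qk: Qk averaged 42.0 ± 1.28 FPKM in TAF15 OE and 28.5 ± 2.04 FPKM in Control, Hnrnpf 17.6 ± 0.263 FPKM in TAF15 OE and 13.3 ± 0.532 FPKM in Control, Ptbp1 7.43 ± 0.814 FPKM in TAF15 OE and 5.29 ± 0.621 FPKM in Control and Ptbp3 6.37 ± 0.554 FPKM in TAF15 OE and 4.69 ± 0.493 FPKM in Control. Summed over the 14 neuron-enriched genes, the level was 424, 379 and 383 FPKM in TAF15 OE 1, 2 and 3, against 513, 466 and 476 FPKM in Control 1, 2 and 3. For the 11 SR proteins the sums were 288, 295 and 324 FPKM in the TAF15 OE libraries and 294, 292 and 284 FPKM in the Control libraries, which overlap.

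**Figure D3:**
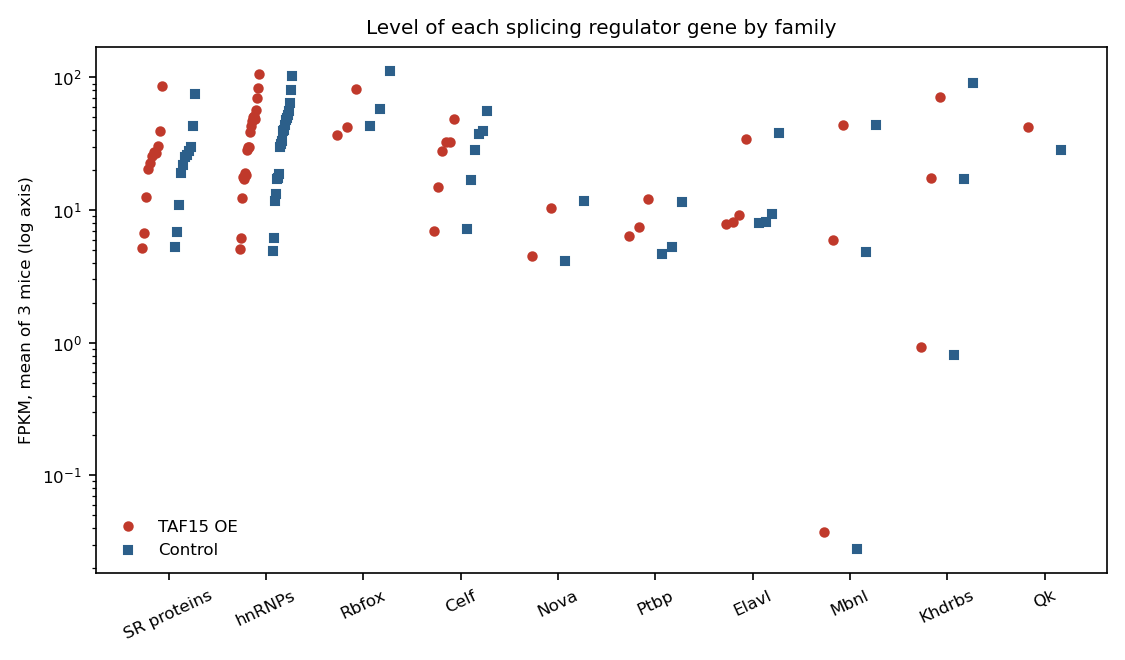
Level of each splicing regulator (FPKM on a log axis, mean of 3 mice), a point per gene in TAF15 OE (red circles) left of Control (blue squares), by family. SR proteins and hnRNPs span 4.98 to 104 FPKM as means of 6, and Mbnl3 lies far below the rest.

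The neuronal families hold long genes. The neuron-enriched regulators had a median span of 136 kb and the 8 families beside SR proteins and hnRNPs one of 119 kb, and Khdrbs2, which was not called, spans 486 kb. The spans of the 6 genes that fell had a median of 293 kb (range 13.9 to 969.9 kb), against 51.4 kb for the 4 that rose, 7.22 kb for the SR proteins and 13.0 kb for the hnRNPs. Over all tested protein-coding genes the median span was 25.2 kb, and it was 28.6 kb for those called lower and 30.6 kb for those called higher. Celf3 at 13.9 kb and Celf5 at 23.5 kb are the short exceptions among the 6.

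Promoter windows differ between genes that moved alike. The 250 bases before the RefSeq start nearest to the deposited one were read for 49 of the 56 genes (GRCm38.p6), and 4 called genes whose start lies within 10 bases of it are printed to set side by side a pair that fell and a pair that rose. Capitals mark a GC box (GGGCGG, or CCGCCC on the other strand) or a TATAAA word, both strands searched and overlapping matches counted.
Celf3 (chr3:94478045-94478294, plus strand): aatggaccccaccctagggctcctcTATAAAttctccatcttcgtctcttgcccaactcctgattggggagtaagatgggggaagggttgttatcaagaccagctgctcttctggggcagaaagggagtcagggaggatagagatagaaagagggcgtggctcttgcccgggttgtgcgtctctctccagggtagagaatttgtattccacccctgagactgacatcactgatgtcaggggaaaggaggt
Celf5 (chr10:81482700-81482949, minus strand): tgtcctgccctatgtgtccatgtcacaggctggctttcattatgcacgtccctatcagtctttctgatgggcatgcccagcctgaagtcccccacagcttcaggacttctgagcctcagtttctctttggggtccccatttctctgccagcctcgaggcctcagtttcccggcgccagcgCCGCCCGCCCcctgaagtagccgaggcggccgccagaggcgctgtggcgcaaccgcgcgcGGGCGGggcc
Ptbp1 (chr10:79854182-79854431, plus strand): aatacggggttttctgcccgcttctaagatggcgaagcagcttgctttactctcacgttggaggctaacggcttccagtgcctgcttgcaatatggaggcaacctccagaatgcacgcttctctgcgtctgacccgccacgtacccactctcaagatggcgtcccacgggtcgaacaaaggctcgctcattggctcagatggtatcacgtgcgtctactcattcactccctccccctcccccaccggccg
Qk (chr17:10319362-10319611, minus strand): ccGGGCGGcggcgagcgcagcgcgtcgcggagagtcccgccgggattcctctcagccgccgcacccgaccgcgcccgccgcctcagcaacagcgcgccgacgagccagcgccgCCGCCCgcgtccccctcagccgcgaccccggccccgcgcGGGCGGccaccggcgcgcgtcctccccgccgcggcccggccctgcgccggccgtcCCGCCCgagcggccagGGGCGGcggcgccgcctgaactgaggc
Celf3 holds the TATAAA word and no GC box, at 52.8% GC, while Celf5, which also fell, holds 3 GC boxes, 2 of them overlapping, at 64.4% GC. Qk holds 5 GC boxes and 52 CpG sites at 84.8% GC, and Ptbp1, which also rose, holds neither word at 57.6% GC. Over the 49 windows, 65.3% held a GC box and 14.3% a TATAAA word, against 32.7% and 12.4% of all 32841 windows of this length in the table, which include windows of noncoding genes. Some of the 49 lie far from the deposited start, among them those of Rbfox1 (260613 bases), Rbfox3 (150556 bases) and Celf2 (113365 bases), which fell.

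The splicing machinery around these regulators gave few calls. Of 21 SR kinases, SR-related and nuclear speckle genes, 2 were called, with a median log2 fold change of -0.03. Srpk3, an SR protein kinase best known from muscle, rose (log2 fold change 0.61, SE 0.182, adjusted p = 0.0425). Its level was low, at 5.52 to 6.64 CPM in TAF15 OE and 3.86 to 4.21 CPM in Control. Srrm3, a neuronal microexon regulator, fell (log2 fold change -0.37, SE 0.083, adjusted p = 0.0141). Of 29 tested other splicing regulators, 1 fell, Rbm24 (log2 fold change -0.43, SE 0.116, adjusted p = 0.0285), known from muscle, with a median of 0.03. Of 66 tested core spliceosome genes, 2 fell: Snrpn, the neuronal Sm protein gene (log2 fold change -0.35, SE 0.070, adjusted p = 0.00754), and Sf3b3, a subunit that recognises the branch point (log2 fold change -0.23, SE 0.068, adjusted p = 0.0448), with a median of -0.02. These shares, 2 of 21, 1 of 29 and 2 of 66, were below the 15.3% of all genes. None of these falls was called with scaling on pan-neuronal markers (Srrm3 -0.10, Rbm24 -0.17, Snrpn -0.09 and Sf3b3 0.037 in log2 fold change). That scaling called 13, 17 and 29 genes of the 3 lists higher and none lower, against 35.8% higher and 0.931% lower of all tested genes. From these lists and the cell type marker lists, the called genes with the smallest p, 29 in all, were followed through the other processing settings. Of these, 14 lost their call in at least 1 setting.

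Markers of neurons and glia moved alongside. Pan-neuronal markers gave 0 higher and 13 lower of 20 (median log2 fold change -0.26) and excitatory neuron markers 0 higher and 7 lower of 10 (median -0.51), and their summed levels did not overlap, at 14616 to 15546 CPM in TAF15 OE and 17738 to 18586 CPM in Control for the pan-neuronal list. Inhibitory neuron markers gave 0 higher and 2 lower of 10, with a median of -0.10 and overlapping sums. Markers rose for astrocytes (7 higher and 0 lower of 10, median 0.53), microglia (11 higher and 0 lower of 12, median 1.21) and oligodendrocytes (8 higher and 0 lower of 10, median 0.46). Their summed levels were 8739 to 9571 CPM in TAF15 OE and 5110 to 6343 CPM in Control, 1126 to 1751 CPM in TAF15 OE and 558 to 606 CPM in Control, and 6440 to 8350 CPM in TAF15 OE and 5238 to 5656 CPM in Control, with no overlap between groups in any of the 3. Endothelial and mural markers gave 5 higher and 0 lower of 10, lymphocyte and plasma cell markers 7 higher and 0 lower of 8, oligodendrocyte precursor markers 1 higher and 0 lower of 6 and choroid plexus markers 0 higher and 0 lower of 7. No marker of any list was at 0 in all 6 libraries. The fall of Rbfox1, Rbfox3, Celf3, Celf5 and Khdrbs3, which are enriched in neurons, went with the neuronal markers. The rise of Qk, Ptbp1 and Ptbp3 went with the glial ones. Of the 14 neuron-enriched regulators named below, however, 9 were not called. Of the 14, 11 lay below 0 and 3 above it, Khdrbs2 at 0.16, Nova1 at 0.08 and Ptbp2 at 0.04 in log2 fold change. The part of cell make-up in these results was not tested.

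**Figure D4:**
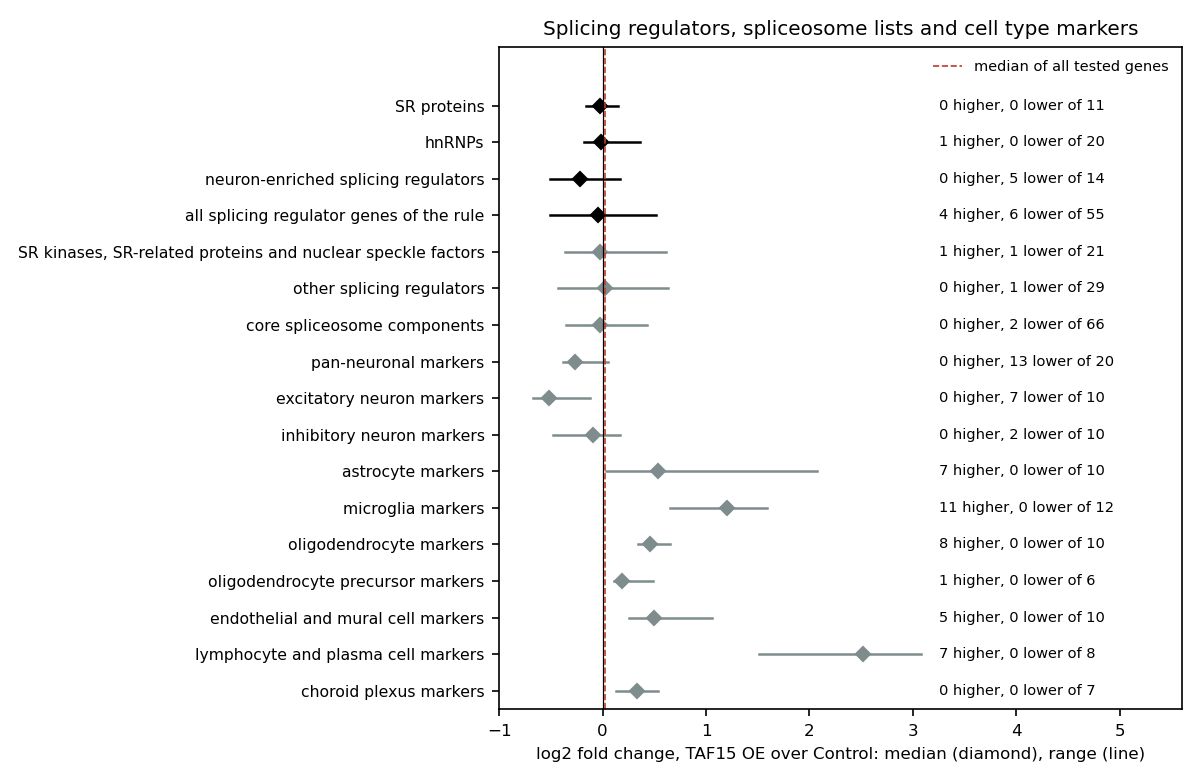
Median (diamond) and range (line) of the log2 fold change, TAF15 OE over Control, for the splicing regulators (black), related splicing lists and cell type marker lists (grey), with the number called in each; the dashed line is the median of all tested genes. Neuron-enriched splicing regulators have a median of -0.22, near the pan-neuronal markers at -0.26, while SR proteins and hnRNPs sit at -0.02 and -0.01. With scaling on pan-neuronal markers the neuron-enriched median is 0.05 and that of all tested genes 0.29.

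Grouped by where they are known to be expressed, 14 genes are neuron-enriched (Rbfox1, Rbfox3, Celf3 to Celf6, both Nova genes, Elavl2 to Elavl4, Khdrbs2, Khdrbs3 and Ptbp2). Of them 5 fell and none rose, with a median log2 fold change of -0.22 (0.05 with scaling on pan-neuronal markers). Minus the median of all tested genes, the neuron-enriched median was -0.24 with TMM and -0.24 with pan-neuronal scaling. Rescaling the libraries moves all genes by nearly the same amount, so this difference could hardly change and is no separate check. Of the other 41, 1 fell and 4 rose, with a median of -0.02. Among all tested genes, 9.32% were called higher and 5.95% lower with TMM. The shares were 0% higher and 35.7% lower for the 14 neuron-enriched genes. For the other 41 they were 9.76% higher, near the share of all genes, and 2.44% lower. With libraries scaled on the 20 pan-neuronal markers, the median of all tested genes moved to 0.29, against 0.03, and 35.8% of genes were called higher and 0.931% lower. On that scale 29 regulators were higher and 1, Rbfox3, lower (log2 fold change -0.23, adjusted p = 0.0132). Rbfox1 stood at -0.24, Khdrbs3 at -0.15 and Celf5 at -0.06, none of them called. Qk, Ptbp1, Ptbp3 and Hnrnpf stood at 0.78, 0.71, 0.66 and 0.63. The median of the SR proteins was 0.24 with that scaling, and 6 of 11 were called higher.

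The 10 calls differed in how far they rested on individual mice. Rbfox3 and Qk stayed under 0.05 whichever library was left out (adjusted p between 0.000428 and 0.0120 for Rbfox3, and between 0.00328 and 0.0130 for Qk). Hnrnpf and Celf5 missed the threshold only without TAF15 OE 2 (adjusted p = 0.0523 and 0.0570). Ptbp1 missed it without TAF15 OE 3, Control 1 or Control 3 (adjusted p 0.0543 to 0.0851), and Ptbp3 without any library but Control 1 (0.0558 to 0.104). Celf3 missed it without TAF15 OE 2 or any Control library (0.0534 to 0.0783). Rbfox1, Khdrbs3 and Celf2 missed it without any library but TAF15 OE 1 (adjusted p 0.0730 to 0.120 for Rbfox1, 0.0586 to 0.139 for Khdrbs3 and 0.0716 to 0.155 for Celf2). All 10 kept their direction in these 6 fits. Celf4, Nova2, Rbfox2 and Hnrnpm gained a call as lower without TAF15 OE 1 (adjusted p 0.00713 to 0.0469), and Nova2 and Elavl3 without Control 2 (adjusted p = 0.0336 and 0.0390). In the authors' deposited table, 12 regulators had an adjusted p-value below 0.05, against 16.0% of its genes with such a value, and the 10 called here were among them; the other 2 were Rbfox2 and Celf4 (adjusted p-values 0.0137 and 0.0176 there). None of the 56 was marked significant in the authors' deposited table, where every marked gene had an absolute log2 fold change of at least 1.00.

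**Figure D5:**
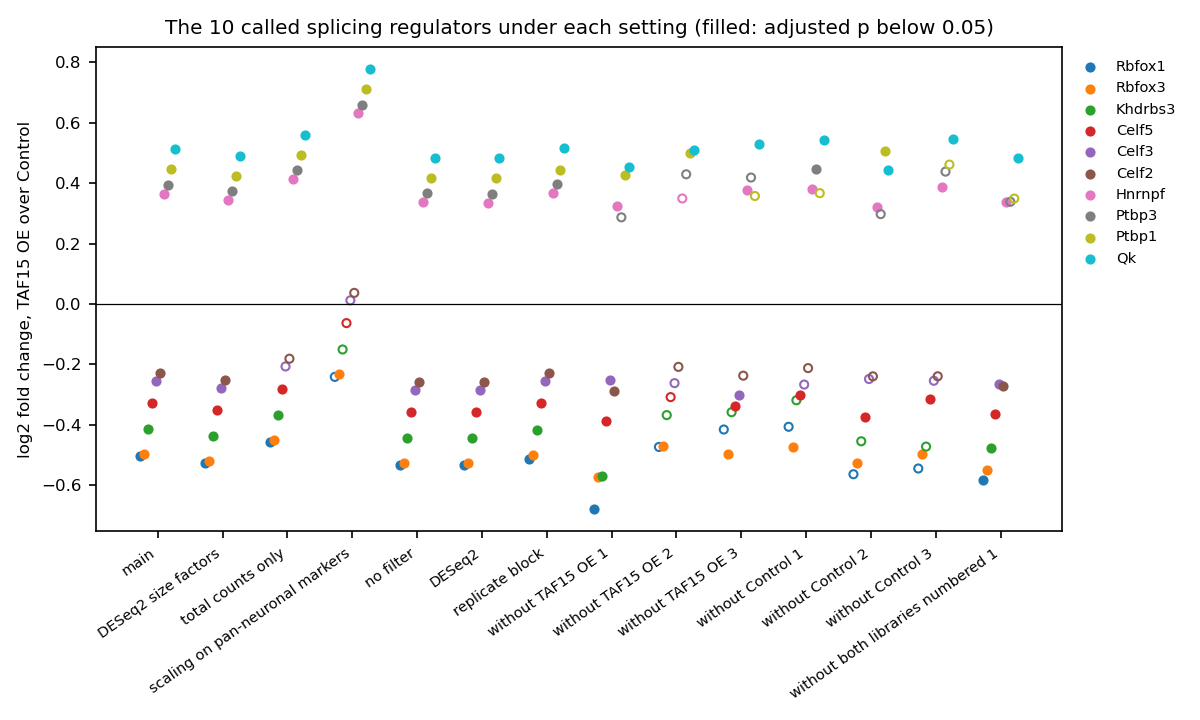
Log2 fold change, TAF15 OE over Control, of the 10 called splicing regulators under each processing setting (columns); filled points have an adjusted p below 0.05. The 4 that rose stay above 0 in every column, and the 6 that fell stay below 0 except Celf2 and Celf3 with scaling on pan-neuronal markers.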

How the data were processed

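Hippocampal RNA was extracted with Trizol, made into TruSeq libraries and sequenced on an Illumina NovaSeq, per the labels. CASAVA, Bowtie2 2.2.3, HISAT2 2.1.0, TopHat2 and build GRCm38 are named in the submitters' processing notes; no source used here gives their roles, the read counter, the annotation release or the strand setting. Raw counts per gene were deposited as a table, and the authors' FPKM table scales them by gene length and library total (relative deviation at most 2.57e-09 in the 8926 genes above 200 counts throughout). The authors' comparison table adds symbols and positions, the same counts in 100% of cells, and, per the file headers, a mean normalised signal, a fold change as a ratio and in log2, and an unnamed test's p-value, raw and adjusted.

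Counts were fitted in R 4.3.3 with edgeR 4.0.16: filterByExpr (minimum count 10, minimum total count 15), TMM scaling (factors 0.964 to 1.03), glmQLFit with robust estimation and group as the only term, and Benjamini-Hochberg adjustment over 16758 genes, called at an adjusted p below 0.05. The biological coefficient of variation was 13.1%. Standard errors come from the F statistic. Levels between genes are compared by FPKM only. The members and lists, and the rule naming genes, were chosen with earlier results of these data known: values in every library go to called members and, in families without one, to the most abundant member; Srsf7, Hnrnpab, Hnrnpm, Rbfox2, Mbnl1 and Ptbp2 were added after their values were seen, and up to 3 called genes with the smallest p were eligible from each list. Replicate numbers come from the sample titles. Same-numbered libraries of the groups had deviations correlated at 0.126, 0.0776 and 0.0871, not all above 0.1, so the numbers were not taken to pair the mice. No libraries were duplicates (smallest chi-square per degree of freedom 5.15). Total counts of 14965464 to 16067000 limit the precision of low genes. Exonic overlaps and shared 75-base words were found in GENCODE M21, and promoters in RefSeq windows of GRCm38.p6. Alternative fits used total counts, DESeq2 1.42.0 size factors, scaling on pan-neuronal markers, no filter, DESeq2, the replicate block, each library left out, and both libraries numbered 1 left out, the last named from an earlier analysis. The fit was tested on simulated counts. Protein sequences were not analysed here.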

Additional observations from a re-analysis of the deposited data

How the results depend on the processing

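Of all tested genes 2559 were called, and of the regulators 4 higher and 6 lower. Scaling on pan-neuronal markers called 6152 genes (97.5% of them higher, against 61.0% with TMM), 29 regulators higher and 1 lower; with total counts alone 72.0% of calls were higher. No filter on low counts called 10 regulators lower, beside 1568 of all 30821 genes. Leaving out both libraries numbered 1 called 2 higher, beside 1197 of all 16968 genes. With 1 library left out, the genes called ran from 1331 to 2501, regulators higher from 2 to 3 and lower from 1 to 10. The fewest, 1331 genes (966 higher and 365 lower) with 2 regulators higher and 1 lower, came without TAF15 OE 2. Without Control 1, 2 and 3, 1381, 1519 and 1698 genes were called. Without TAF15 OE 1, 10 regulators were lower, beside 1208 of all 17109 genes. Without TAF15 OE 3, Control 1 and Control 3 the regulators lower were 3, 2 and 2, beside 624, 424 and 568 among all genes. The number tested changes with these choices, and otherwise the cause was not tested. With the replicate number as a block, 3291 of 16758 genes were called, 1904 higher and 1387 lower. Of the regulators, 5 were called higher and 9 lower, the added ones being Mbnl1 (adjusted p = 0.0153 by edgeR), Rbfox2 (0.00490), Celf4 (0.0160) and Nova2 (0.0320). Each library correlated best with the one of its own number, a hint from the data and not from the design.

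Scaling on pan-neuronal markers moved the median log2 fold change of all tested genes from 0.03 to 0.29. The shift was nearly the same for every gene. The median of the regulators minus that of all tested genes was -0.07 with TMM and -0.07 with this scaling. By this shift the sign of 31 of 55 regulators turned, so the turns are no separate results for single regulators. Of those given singly, Celf1 stood at 0.20, Celf2 at 0.037, Celf3 at 0.012, Celf4 at 0.039, Celf6 at 0.18, Elavl1 at 0.19, Elavl2 at 0.22, Elavl3 at 0.063, Elavl4 at 0.18, Hnrnpab at 0.083, Hnrnph2 at 0.15, Hnrnpm at 0.15, Khdrbs1 at 0.24, Mbnl2 at 0.22, Nova2 at 0.031 and Srsf7 at 0.11 in log2 fold change, and the spliceosome gene Sf3b3 at 0.037. Total counts turned 10, among them Elavl2 at 0.0063 and Khdrbs1 at 0.025, and ended the calls of Celf2 and Celf3 (adjusted p = 0.0628 and 0.0555 by edgeR). Khdrbs1 ran from -0.060 to 0.028 with 1 library left out, and Hnrnpm from -0.29 to 0.0042. The 10 called genes otherwise kept their direction. At this depth and 3 mice per group, the TMM-scaled 95% intervals of uncalled SR proteins and hnRNPs reach at most -0.39 and 0.35 (log2). A difference inside a gene's own interval remains compatible with its counts.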
